A study of Mus musculus with 2 samples.

Results

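The genes described here build and drive the mitotic spindle, together with the kinesins that carry cargo in non-dividing cells. They are the kinesins (symbols that begin with Kif and a digit), the centromere proteins (Cenp and a single letter) and 26 named genes of the kinetochore, the spindle checkpoint, the spindle and cytokinesis. Of 84 genes matching these symbols, 82 had at least 10 counts in the control or the DSS library and were kept, out of 19294 genes in the count table and 17235 genes with at least 10 counts in either library. Nearest inside this minimum was Kif26a, with 15 control counts and 5 DSS counts. Outside it were Kif6, with 5 and 5 counts, and Kif28, with 1 and 1.

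The samples were mouse intestinal organoids (mIOs), grown from jejunal crypts in Matrigel with EGF, Noggin and R-spondin. All organoids carried the Lgr5-EGFP-IRES-creERT2 allele, in which EGFP and an inducible Cre are expressed from the Lgr5 locus. There was 1 control culture and 1 culture under DSS treatment (dextran sulfate sodium, a sulfated polysaccharide that injures epithelium), both taken at day 4, and the dose of DSS given to the sequenced culture is not given in the sources used here. Sequencing depth was 65493032 counts (control) and 59746968 counts (DSS). With 1 library per condition there is no replicate check of any difference, no test was made, and the exact 95% intervals given below cover counting error only.

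The labels name intestinal stem cells as the cell type. Epcam and Cdh1, which mark all epithelium, were at 67379 and 63434 counts in the control library and at 52502 and 47309 counts in the DSS library. The stem cell marker Lgr5 had 18849 control counts and 1048 DSS counts. Krt20, a marker of mature surface epithelium, had 5041 control counts and 61268 DSS counts, so each library held more than stem cells.

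Kinesins are motor proteins that use ATP to move along microtubules or to take them apart. In mitosis they push spindle poles apart, move chromosomes to the spindle equator and prepare the cut between daughter cells, whereas transport kinesins carry vesicles, organelles and ciliary parts in cells that may never divide. The kinetochore is the protein plate, assembled on the centromere, through which each chromosome holds the spindle. In the intestine, dividing cells lie in the crypt, where stem cells and their transit-amplifying progeny make new epithelium, and the villus cells have left the cycle.

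In the DSS library, 53 of the 82 members were at a log2 ratio of -2 or less (at least 4-fold lower after scaling), or 64.6% of them. The same held for 6.54% of all 17235 tested genes. The median log2 ratio of the members was -3.02, beside -0.06 for all tested genes. At the wider line of -1 or less there were 57 members, beside 20.2% of all tested genes. A log2 ratio of 2 or more was found for 2 members, Kif5a and Kif5c, and for 7.87% of all tested genes. In a bulk culture, fewer dividing cells and less of these mRNAs per dividing cell cannot be told apart.

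**Figure D1:**
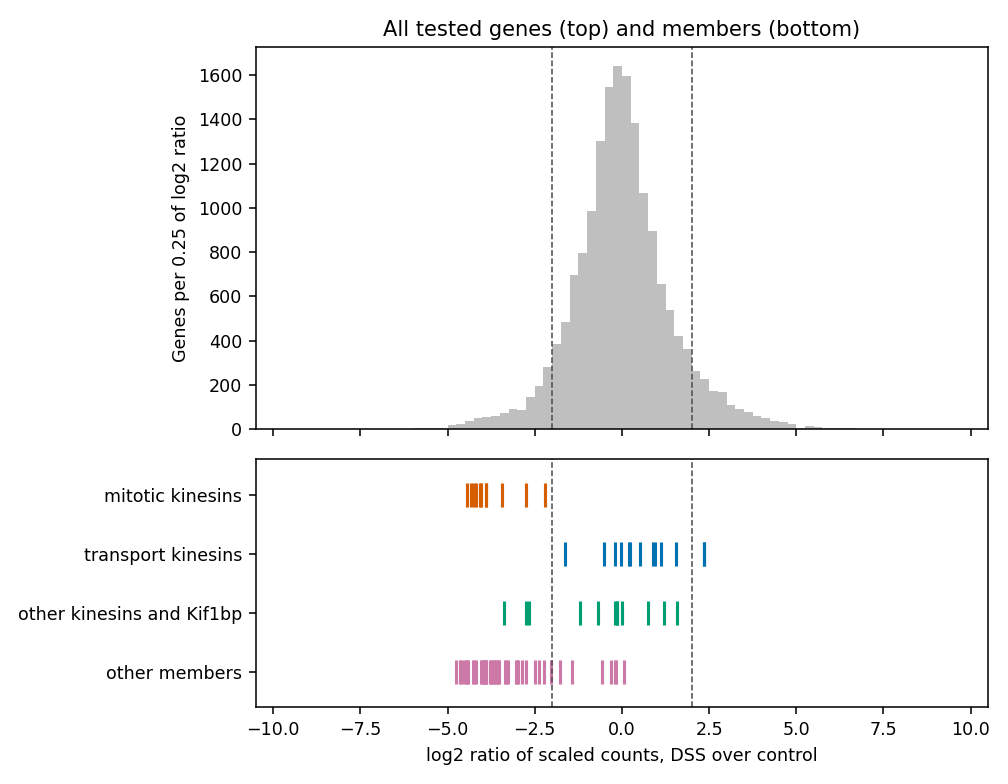
The upper panel is a histogram of the log2 ratio of scaled counts, DSS over control, for the 17235 tested genes, in genes per 0.25 of log2 ratio. In the lower panel each tick is 1 member, and the dashed lines mark -2 and 2. All 11 mitotic kinesins lie left of -2, and all 13 transport kinesins lie right of it.

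The 11 kinesins listed as mitotic were all lower in the DSS library, and each was at a log2 ratio of -2 or less. Their median was -4.04, or 6.06% of the control level. Of the 13 transport kinesins none was at -2 or less and 2 were at 2 or more, beside 6.54% and 7.87% of all tested genes. With 13 genes, none at -2 or less is near the share of all tested genes. The median of the transport kinesins was 0.53. The medians differed by -4.58 on the log2 scale, mitotic minus transport, and the groups did not overlap, since the highest mitotic kinesin was at -2.21 and the lowest transport kinesin at -1.63. Kif2a, which works both in mitosis and outside it, was placed with the other kinesins and was at 0.01, so the gap between the groups depends on that placement. Rescaling the libraries moves both groups alike and leaves this difference as it is.

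Kif11, the motor that slides spindle microtubules apart to make a bipolar spindle (NCBI gene identifier 16551), had 7600 control counts and 390 DSS counts. Its log2 ratio was -3.90 (interval -4.05 to -3.75). Kif15, which can take over part of this work, had 4340 and 198 counts, at -4.07 (interval -4.28 to -3.86). The intervals of these spindle-opening motors overlapped.

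Among the motors of cell division itself, the values were less alike. Kif14, which acts at the midbody (identifier 381293), had the lowest log2 ratio of the mitotic kinesins, -4.44 (interval -4.80 to -4.10), with 2039 control counts and 72 DSS counts. Kif20a, which brings the chromosomal passenger complex to the central spindle, had 6046 and 280 counts, at -4.04. Kif20b, also a cytokinesis motor, had 4125 and 156 counts, at -4.34. Kif23, the motor of the centralspindlin complex (identifier 71819), stood apart from these. It had the most control counts of the mitotic kinesins, 8339, and 1378 DSS counts, and its log2 ratio of -2.21 (interval -2.29 to -2.13), was the highest of the group.

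The kinesins that act on chromosomes and microtubule ends lay between -4.24 and -2.74. Kif2c, a microtubule depolymerase of the centromere, had 3015 and 122 counts, at -4.24. Kif18a, which dampens chromosome movements at the plate, had 1185 and 61 counts, at -3.89, and its relative Kif18b had 2806 and 117 counts, at -4.20. The chromokinesins, which bind chromosome arms, were less low. Kif4 had 3126 and 221 counts, at -3.43, and Kif22 had 3321 and 380 counts, at -2.74.

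**Figure D2:**
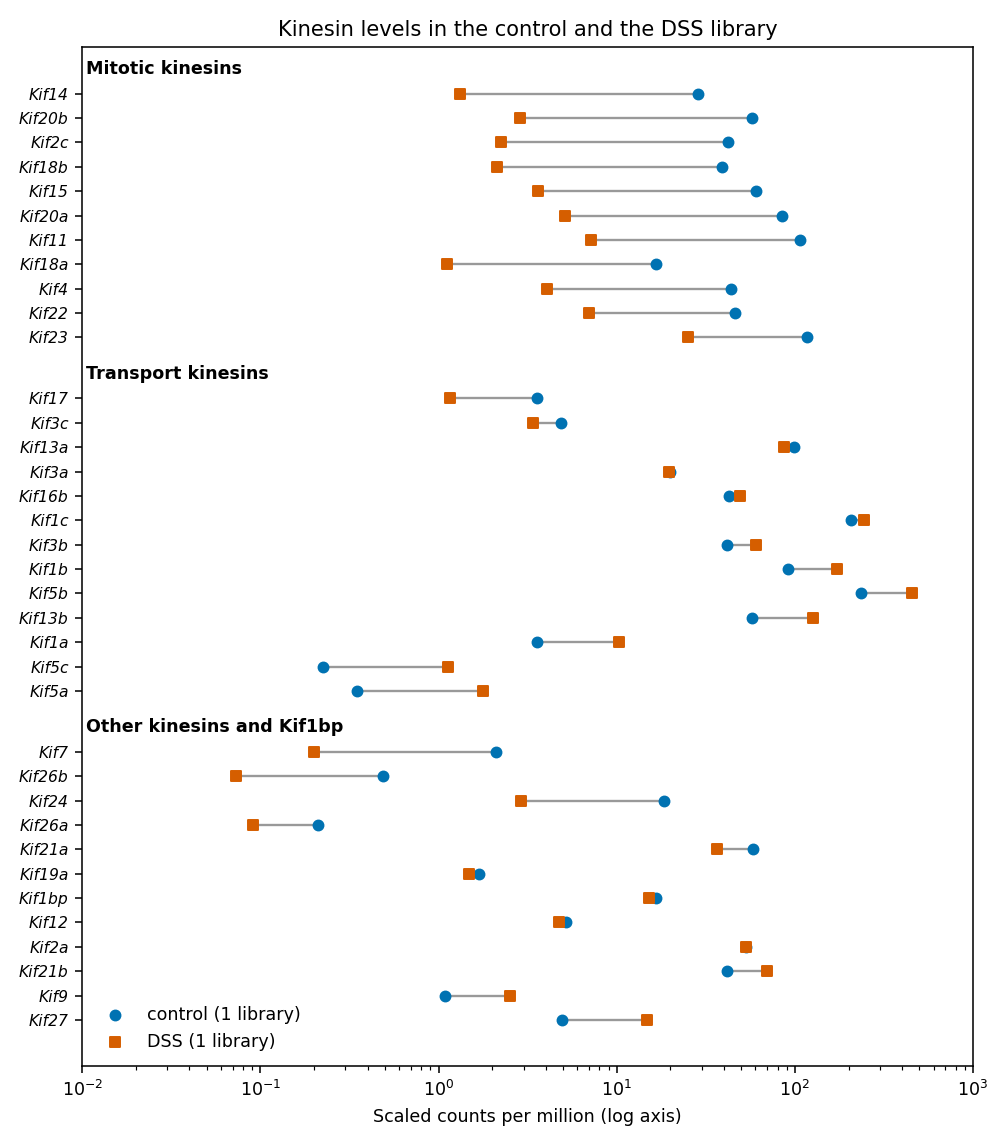
Each row is 1 kinesin (Kif1bp is a kinesin-binding protein), with its scaled CPM in the control library (circle) and the DSS library (square) on a log axis. The mitotic kinesins are all shifted to lower values in DSS, from Kif14 at -4.44 to Kif23 at -2.21 on the log2 scale, and the transport kinesins run from Kif17 at -1.63 to Kif5a at 2.34.

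Kif5b, the widely expressed heavy chain of conventional kinesin (identifier 16573), had 16910 control counts and 24812 DSS counts, at a log2 ratio of 0.94 (interval 0.91 to 0.97). Kif1c, which carries vesicles and mRNAs, had 14785 and 13326 counts. After scaling Kif1c was at 0.24, and it was at -0.02 when only total counts were used, so its direction depends on the scaling.

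The endosome motors went both ways. Kif13b had 4112 and 6869 counts, at 1.13, Kif16b had 3044 and 2694, at 0.21, and Kif13a had 7046 and 4721, at -0.19 (interval -0.24 to -0.14). Kif1b, a motor of mitochondria and vesicle precursors, had 6563 and 9377 counts, at 0.90. With total counts only, Kif16b was at -0.04, and the median of all transport kinesins was still above 0, at 0.28.

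Kif3a and Kif3b form the motor that builds cilia, with Kifap3 as the third subunit. Kif3a had 1421 and 1070 counts, at -0.02 (interval -0.14 to 0.095, which includes 0), and Kif3b had 2985 and 3296 counts, at 0.53. Kifap3 had 789 and 406 counts, at -0.57. The intervals of these 3 subunits did not overlap. Kif17, a further ciliary motor, was the lowest transport kinesin, with 256 and 63 counts and a log2 ratio of -1.63 (interval -2.06 to -1.23). Kif3c, an alternative partner of Kif3a, had 347 and 185 counts, at -0.52 (interval -0.78 to -0.26).

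The highest ratios among the transport kinesins belonged to motors best known from neurons and neuroendocrine cells, all with few reads in the control library. Kif5a had 25 and 97 counts, at 2.34 (interval 1.70 to 3.04). Kif5c had 16 and 62 counts, at 2.34 (interval 1.53 to 3.24). Kif1a, a motor of dense-core and synaptic vesicles, had 254 and 563 counts, at 1.54. In the same comparison all 11 listed enteroendocrine genes were at a log2 ratio of 1 or more, beside 19.3% of all tested genes. Their summed level was 734 scaled CPM (counts relative to the scaled library size) under control conditions and 3731 under DSS. Chgb took the most reads of them in both libraries. The 7 neuron and glia genes with counts in both libraries had a sum of 12.6 and 72.5 scaled CPM, mostly from Ret. Sox10 and Gfap were not listed. The part of these cells in the values of Kif1a, Kif5a and Kif5c was not tested.

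The kinesins listed neither as mitotic nor as long-range carriers, with the kinesin-binding protein Kif1bp, made 12 members with a median of -0.17. Of these, 3 were at -2 or less. Kif24, a centriole kinesin that restrains cilium growth, had 1324 and 158 counts, at -2.68 (interval -2.93 to -2.44). Kif7, a Hedgehog regulator at the cilium tip, had 151 and 11 counts, at -3.39 (interval -4.42 to -2.51). Kif26b rested on 35 and 4 counts (interval -4.69 to -1.26). Kif26a (interval -3.01 to 0.34), could not be placed on either side of 0 at this depth.

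Most others of these 12 were within 1 of 0 on the log2 scale. Kif2a is a microtubule depolymerase like Kif2c, but it also works outside mitosis. It had 3791 and 2918 counts and a log2 ratio of 0.01 (interval -0.06 to 0.08), beside -4.24 for Kif2c. Kif27 and Kif9, which belong to motile cilia, were the highest at 1.58 and 1.21, with 354 and 809 counts and with 78 and 138 counts. Kif21b, which slows microtubule growth, was at 0.75 with 2958 and 3804 counts, and its paralog Kif21a was at -0.69 with 4180 and 1986 counts (interval -0.76 to -0.61). Kif19a at -0.19, Kif1bp at -0.15 and Kif12 at -0.13 lay close to 0.

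Reads on the 35 motors whose symbols begin with Kif and a digit were taken as a whole. This leaves out Cenpe and also Kifc1, at -4.08, and Kifc5b, at -4.14, the last 2 named after their values were seen. Mitotic kinesins took 39.2% of these reads in the control library, with an exact interval from 39.0% to 39.5%. In the DSS library they took 4.18%, with an interval from 4.05% to 4.32%. With counts per kilobase the share was 52.1% (control) and 7.63% (DSS). Levels were set between genes only per kilobase of the longest coding transcript. On this scale the median was 12.5 scaled CPM per kilobase for mitotic and 6.48 for transport kinesins in the control library. In the DSS library it was 0.785 and 7.69. Kif5b, Kif23, Kif1c, Kif20a and Kif11 were the 5 highest of the 35 motors in the control library in that order. Kif5b, Kif1c, Kif1b, Kif13b and Kif13a were those of the DSS library. Of the 10 highest of these 35 motors per kilobase, 7 were mitotic in the control library and 1 in the DSS library, and that one was Kif23.

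Many genes of mitosis share promoter elements. The cell cycle genes homology region (CHR), with the letters TTTGAA, is a known site of the MuvB complexes, which act with E2F4 as a repressor and with Mybl2 and Foxm1 as an activator, and the CCAAT box is the site of NF-Y. Both were searched on both strands, without overlap between them, in the 300 bases from 250 before to 50 after each RefSeq gene start (build GRCm38.p6). Of the 82 members, 71 matched the table, with 81 promoters. The others were Kif20a, Kif5a, Kif5b, Kif13b, Kif19a, Kif1bp, Kif21b, Spc24, Aurkb, Incenp and Tpx2.

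TTTGAA was found in 9 of 10 promoters of mitotic kinesins (90.0%), in 24 of 48 promoters of members without a Kif symbol (50%) and in 1 of 12 promoters of transport kinesins (8.33%). Among the 15378 promoters of all tested genes it was found in 12.8%. CCAAT was found in 60.0%, 70.8% and 33.3% of the same member groups and in 37.7% of the promoters of all tested genes. Both motifs together were in 6 of 10 promoters of mitotic kinesins, in none of the 12 of transport kinesins and in 5.26% for all tested genes. A match is a description of the letters and does not show that a factor binds there.

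Split by the measured change, 32 of 52 promoters of members at a log2 ratio of -2 or less held TTTGAA (61.5%). Of the 24 promoters of members above -1, 2 did (8.33%), those of Kif1a and Kif27. Members between these lines, which were Kif17, Kif26a, Cenpo and Bub3, were left out of the split. Of these only Bub3, at -1.76, had TTTGAA matches, 2 over its 2 promoters. Kif18a was the mitotic kinesin without a match, and it was at -3.89. In the mitotic kinesins the 12 TTTGAA matches began at a median of -18.0 bases from the gene start, and 9 CCAAT matches at -53.0. Among the inner kinetochore genes TTTGAA was in 4 of 20 promoters (20%) and CCAAT in 14 of 20 (70%), beside 12.8% and 37.7% for all tested genes.

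The promoters below show these arrangements. They are those of the mitotic kinesins and other members with the most control counts, of Cdc20, which was added after its values were seen, and of Kif1c, the transport kinesin with the most control counts among those matched. Each runs 5′ to 3′ along the gene, from 220 bases before to 30 after the start, and capitals mark TTTGAA or CCAAT on either strand (TTCAAA and ATTGG are the same motifs read on the other strand).
Kif11, chr19:37376162-37376411, plus strand: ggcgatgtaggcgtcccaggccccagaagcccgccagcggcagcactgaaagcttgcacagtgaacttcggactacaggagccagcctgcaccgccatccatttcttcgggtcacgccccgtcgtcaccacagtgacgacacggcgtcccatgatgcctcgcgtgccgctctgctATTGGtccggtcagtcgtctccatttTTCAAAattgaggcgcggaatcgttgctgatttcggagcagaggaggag
Kif23, chr9:61946770-61947019, minus strand: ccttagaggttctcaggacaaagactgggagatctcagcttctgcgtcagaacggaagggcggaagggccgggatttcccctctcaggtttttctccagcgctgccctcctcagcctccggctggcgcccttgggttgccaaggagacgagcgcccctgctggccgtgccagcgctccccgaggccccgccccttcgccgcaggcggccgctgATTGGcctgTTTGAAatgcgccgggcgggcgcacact
Mki67, chr7:135716350-135716599, minus strand: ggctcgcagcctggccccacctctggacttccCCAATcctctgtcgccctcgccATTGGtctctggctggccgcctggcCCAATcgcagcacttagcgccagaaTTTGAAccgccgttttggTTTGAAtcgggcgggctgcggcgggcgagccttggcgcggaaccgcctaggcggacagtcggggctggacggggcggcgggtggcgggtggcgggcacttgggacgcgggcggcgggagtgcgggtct
Top2a, chr11:99024160-99024409, minus strand: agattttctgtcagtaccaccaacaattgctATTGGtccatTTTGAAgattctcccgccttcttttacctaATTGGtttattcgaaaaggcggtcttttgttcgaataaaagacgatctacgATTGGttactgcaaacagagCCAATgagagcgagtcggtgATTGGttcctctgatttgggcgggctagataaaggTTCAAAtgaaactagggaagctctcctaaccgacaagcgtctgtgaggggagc
Cdc20, chr4:118437314-118437563, minus strand: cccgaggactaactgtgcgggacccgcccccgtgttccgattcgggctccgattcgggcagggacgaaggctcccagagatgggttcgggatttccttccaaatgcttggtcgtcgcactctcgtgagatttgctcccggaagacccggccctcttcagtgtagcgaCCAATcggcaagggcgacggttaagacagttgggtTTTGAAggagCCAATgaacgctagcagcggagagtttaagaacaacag
Kif1c, chr11:70700328-70700577, plus strand: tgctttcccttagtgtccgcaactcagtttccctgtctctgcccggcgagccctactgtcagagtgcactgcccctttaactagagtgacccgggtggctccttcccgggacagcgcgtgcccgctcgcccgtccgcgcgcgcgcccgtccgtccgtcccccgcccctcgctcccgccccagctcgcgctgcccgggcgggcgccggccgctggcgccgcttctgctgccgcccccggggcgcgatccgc

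In Kif11 and Kif23 the window holds 1 CCAAT box followed by 1 TTTGAA, both close to the gene start. Mki67 has 2 TTTGAA and 3 CCAAT matches, and Top2a has 2 and 5. In Cdc20, a TTTGAA lies between 2 CCAAT boxes. The window of Kif1c holds no match.

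**Figure D3:**
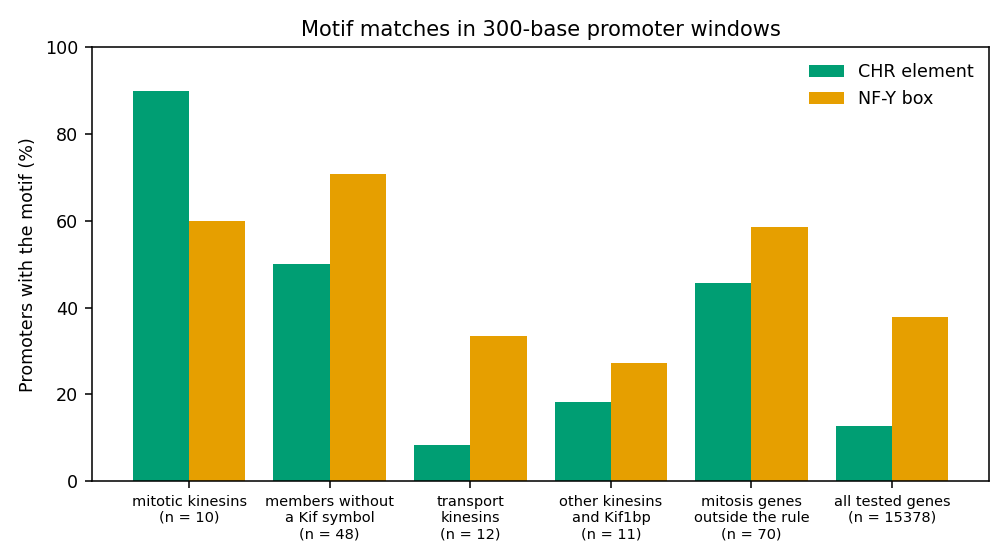
Bars give the percent of promoter windows of 300 bases that hold the CHR element (TTTGAA) or the NF-Y box (CCAAT) on either strand, with the number of promoters under each group. The share with the CHR element is 90.0% in mitotic kinesins, 8.33% in transport kinesins and 12.8% in all tested genes.

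The 46 members without a Kif symbol, among them the kinetochore kinesin Cenpe, had a median log2 ratio of -3.65. Of these, 39 were at -2 or less and none was at 1 or more, beside 6.54% and 19.3% of all tested genes. Mki67, the antigen used to stain dividing cells, had 29090 control counts and 1367 DSS counts, at -4.02 (interval -4.10 to -3.94). Top2a, the topoisomerase that untangles sister chromatids, had 22657 and 1353 counts, at -3.68 (interval -3.76 to -3.60). Summed over these 46 genes, the level was 2753 scaled CPM under control conditions and 392 under DSS.

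The inner kinetochore begins with Cenpa, the histone H3 variant that marks the centromere. Cenpa had 3791 and 194 counts, at -3.90 (interval -4.12 to -3.69). On it sits a network of CENP proteins, which are ordered here by their subcomplexes. The genes of the CENP-H, I, K and M subcomplex were all at -3.0 or less, with Cenpi lowest of the inner kinetochore at -4.23 (interval -4.69 to -3.80), from 1129 and 46 counts. Cenph was at -3.95, Cenpk at -3.34 and Cenpm at -3.0.

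In the remaining subcomplexes, partners differed. Cenpn was at -3.54 and its partner Cenpl at -2.04, from 852 and 158 counts. Cenpu was at -3.90, Cenpp at -3.76 and Cenpq at -2.50, whereas Cenpo, of the same subcomplex, was at -1.42, from 711 and 203 counts (interval -1.65 to -1.19). Cenpw was at -3.28 and Cenpt, with which it forms a histone-fold dimer, at -2.24. Cenps was at -2.87 with 259 and 27 counts. Cenpx, its dimer partner, which also serves DNA repair, had 1424 and 969 counts and lay at -0.17 (interval -0.29 to -0.05). The counting intervals of Cenpn and Cenpl, of Cenpw and Cenpt, and of Cenps and Cenpx do not overlap, and the spread between cultures is not known.

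Cenpb, Cenpv and Cenpj, which are named for the centromere but are not part of this network, were nearer their control level. Cenpb, which binds a satellite DNA box and took the most control counts of the Cenp genes, had 8958 and 5558 counts, at -0.30 (interval -0.35 to -0.25). Cenpv, which has a role at microtubules and heterochromatin, had 4272 and 2191 counts, at -0.57. Cenpj, a centriole protein in spite of its name, had 373 and 250 counts, at -0.19 (interval -0.43 to 0.05). In all, 13 of the 17 centromere and inner kinetochore genes were at -2 or less, with a median of -3.0. This was 76.5% of them, beside 6.54% of all tested genes.

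All 6 outer kinetochore genes were at -3.52 or less. Ndc80, the microtubule-binding subunit of the complex named after it, had the lowest log2 ratio of all 82 members, -4.77 (interval -5.24 to -4.33), from 1532 and 43 counts. Nuf2, with which it forms a dimer, was at -4.47. Spc25 at -3.61 and Spc24 at -3.52 (interval -3.85 to -3.20) make up the other end of the same complex and were less low. Cenpe, a kinesin of the kinetochore in spite of its name, took the most control counts of the group and had 5863 and 340 counts, at -3.72 (interval -3.88 to -3.56). Its relative in location, Cenpf, had 5607 and 335 counts, at -3.68.

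The spindle checkpoint holds back anaphase until every kinetochore is attached. Ttk, the kinase that starts it, had 2054 and 68 counts, at -4.53 (interval -4.90 to -4.18), and Bub1 had 3426 and 123 counts, at -4.41. Bub1b, with the most control counts of the group, had 7035 and 344, at -3.97 (interval -4.13 to -3.81). Mad2l1, the subunit that is turned into the inhibitor, was at -2.97, from 3410 and 333 counts. Bub3 was the exception among the 5 genes, with 5647 and 1270 counts and a log2 ratio of -1.76 (interval -1.85 to -1.68). With total counts only, Bub3 was at -2.02, past the line.

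Plk1 and Aurka, the kinases of spindle assembly, gave almost the same value, with 4606 and 232 counts at -3.92 for Plk1 and 3979 and 201 counts at -3.92 for Aurka. The chromosomal passenger complex joins the kinase Aurkb to Incenp, Cdca8 (borealin) and Birc5 (survivin). Its subunits spread over more than 2 units of log2 ratio. Aurkb had 3987 and 121 counts, at -4.65 (interval -4.93 to -4.39), Incenp, with the most control counts of the group, 5411 and 344, at -3.59, Cdca8 4886 and 457, at -3.03, and Birc5 3920 and 577, at -2.38 (interval -2.50 to -2.25).

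At anaphase Cdc20 activates the anaphase-promoting complex, which removes securin (Pttg1) and so frees separase (Espl1). Cdc20 had 7274 and 228 counts, at -4.61 (interval -4.80 to -4.42), and Espl1 had 3270 and 114 counts, at -4.45. Pttg1 had 846 and 678 counts and a log2 ratio of 0.07 (interval -0.08 to 0.22, which includes 0). It was the only member without a Kif symbol above 0, and with total counts it was at -0.19.

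The spindle binders Tpx2, Nusap1, Hmmr and Prc1 were at -4.26, -4.20, -4.05 and -3.34. Tpx2, the activator of Aurka on the spindle, had 6580 and 262 counts. Prc1, which bundles the central spindle and took the most control counts of the 4, had 6678 and 504. In cytokinesis, Anln, the scaffold of the contractile ring, had 6850 and 380 counts, at -3.78 (interval -3.94 to -3.63), and Ect2, which switches on RhoA there, had 7137 and 811 counts, at -2.75 (interval -2.86 to -2.64). Racgap1, the partner of Kif23 in centralspindlin and from a list outside the members, had 7770 and 291 counts, at -4.35, and was named after its value was seen.

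**Figure D4:**
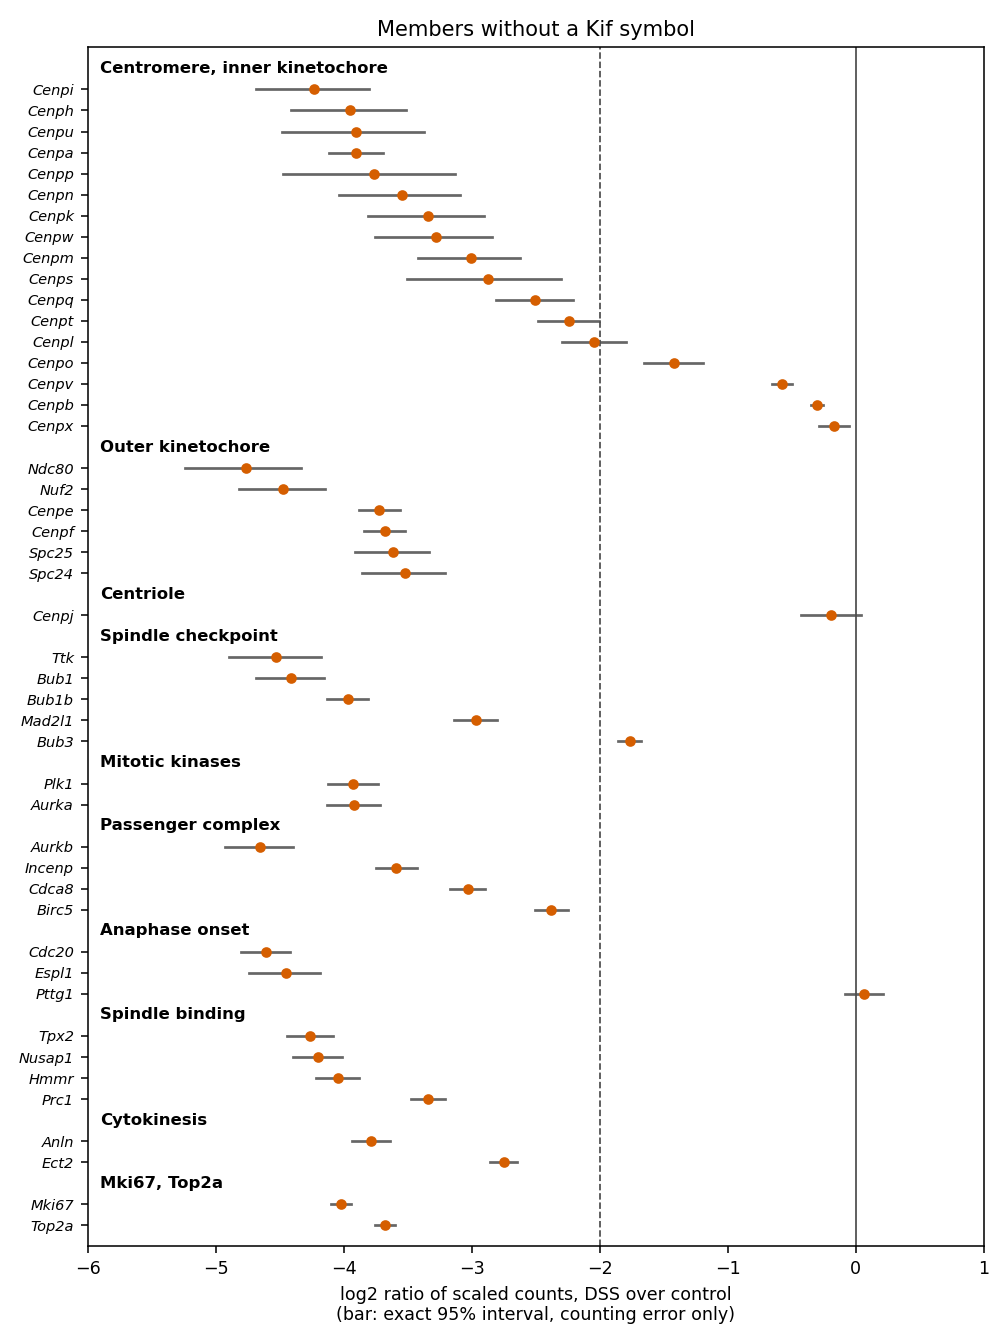
Points are log2 ratios of scaled counts, DSS over control, for the 46 members without a Kif symbol by role, and bars are exact 95% intervals that cover counting error only. The solid line marks 0 and the dashed line -2. Cenpx, Cenpb, Cenpv, Cenpj and Pttg1 lie between -0.57 and 0.07, Cenpo is at -1.42 and Bub3 at -1.76, and the other 39 genes lie left of -2.

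Genes of the same machinery that are not among the members were taken from 4 lists of kinetochore, spindle and cytokinesis, condensin, and mitotic cyclin and anaphase-promoting complex genes. Of 73 such genes with at least 10 counts, 45 were at -2 or less (61.6%) and none was at 2 or more. The shares of all tested genes past these lines were 6.54% and 7.87%. The median of the 73 genes was -3.50. In the spindle and cytokinesis list 19 of 22 genes were at -2 or less, with a median of -4.07. The lowest were Troap, at -5.65 with 1516 and 23 counts, Pimreg, at -5.33 with 737 and 14, and Ckap2l, at -4.84 with 3907 and 104. In the kinetochore list 14 of 22 were at -2 or less, led by Ska1 at -4.99, Kntc1 at -4.41 and Nsl1 at -4.11. The log2 ratio of this list's summed counts was -1.24. Hjurp, with the most control counts of the list, was at -0.70 with 28390 and 13367. Zwint, with 5223 and 4571, was at 0.20 and was the only gene of the list above 0. Hjurp and Zwint were named after their values were seen.

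Within this machinery some parts stood apart, in subsets that were formed after the values were seen. The subunits particular to condensin I, which compacts chromosomes after the nuclear envelope opens, had a median of -4.09, with Ncapg at -4.29 and Ncaph at -4.09. Those of condensin II, which is in the nucleus throughout the cycle, had a median of -1.42, with Ncapg2 at -3.02, Ncapd3 at -1.42 and Ncaph2 at -0.89. Ccna2, Ube2c and Ccnb1 were at -4.56, -4.27 and -4.25. The 13 core subunits of the anaphase-promoting complex had a median of -0.59. None of these 13 was at -2 or less and 3 were at -1 or less, near the 6.54% and 20.2% of all tested genes. Cohesin, which works outside mitosis too, had a median of -0.79. Of its 9 genes 1 was at -2 or less (11.1%, beside 6.54% of all tested genes), Pds5b at -2.12.

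The microtubule tracks and the other motors were nearer their control level. Of 13 tubulin genes, 1 was at -2 or less (7.69%, near the 6.54% of all tested genes), and the median was -0.50. At -1 or less there were 3, beside 20.2% of all tested genes. Their summed level was 2618 scaled CPM under control conditions and 1478 under DSS. The gene at -2 or less was Tubb5, with 47989 and 4854 counts, at -2.92. Tuba1b was at -1.44 and Tubb2a at 1.83, and the values of single tubulin genes are uncertain because reads can fit several of them. Dynein and dynactin, the motor toward the microtubule minus end, had 19 genes between -0.31 and 0.70 with a median of -0.03. The heavy chain Dync1h1 was at 0.68. Of 11 partners of transport kinesins, none was at -2 or less or at 2 or more, beside 6.54% and 7.87% of all tested genes. With 11 genes this is near those shares. The median of the partners was -0.03, and Klc4, a light chain of conventional kinesin, was highest at 1.21.

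**Figure D5:**
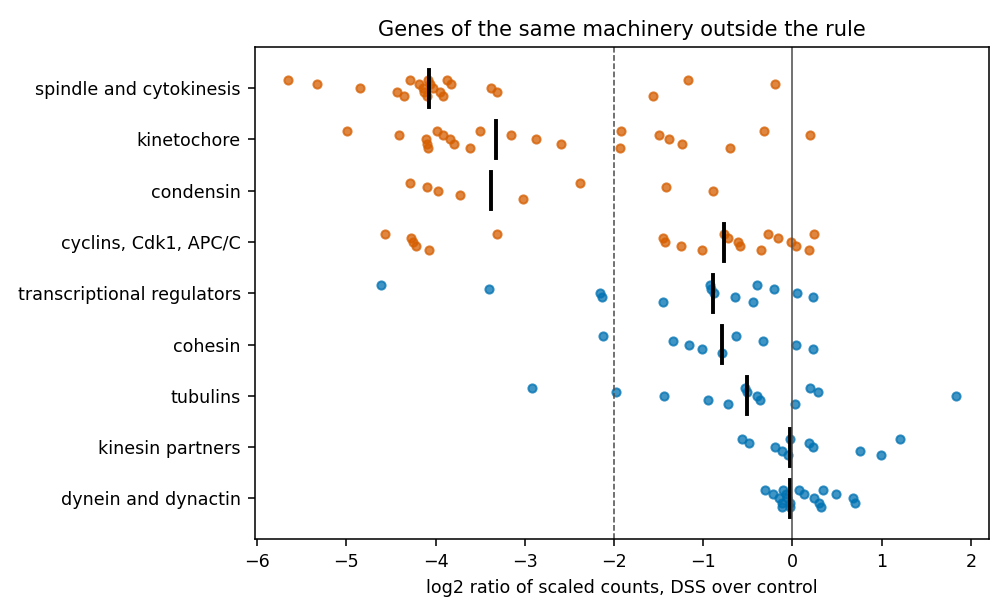
Each point is 1 gene outside the members, placed by its log2 ratio of scaled counts, DSS over control, and the black bar is the list's median. The solid line marks 0 and the dashed line -2. The spindle, kinetochore and condensin lists have medians from -4.07 to -3.32, and those of kinesin partners and of dynein and dynactin are both at -0.03.

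Stem cell genes were lower in the DSS library as well. All 7 listed stem cell genes were at a log2 ratio of -1 or less, beside 20.2% of all tested genes. Their summed level was 1687 scaled CPM under control conditions and 230 under DSS. Slc12a2 took the most reads of them in the control and Smoc2 in the DSS library. Olfm4 was lowest, at -9.59 with 13109 and 13 counts, followed by Ascl2 at -4.31 and Axin2 at -4.26. The part of stem cell number in the values of the mitotic genes was not tested.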

How the data were processed

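mRNA-seq of 1 control and 1 DSS-treated organoid culture was used. The authors deposited raw counts per gene from a stranded poly(A) kit, and the submitters' processing notes name HISAT2 and StringTie. The genome build is not given in the sources used here. The files of the single samples, named as FPKM, hold the same counts for all 19294 genes. No listed gene is at 0 in either library.

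Counts were scaled with TMM factors (1.09 control, 0.915 DSS) in edgeR 4.0.16 under R 4.3.3. Ratios have exact Clopper-Pearson intervals, and no p-value was computed. The computation was tested on simulated data. Python 3.11.15, numpy 2.4.6, scipy 1.17.1, pandas 2.3.3 and matplotlib 3.10.9 were used. Alternatives included DESeq2 1.42.0 size factors. Lengths are from GENCODE transcripts and promoters from RefSeq.

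The members and lists were chosen with earlier results of these data known. Named genes are, per role, those with the most control counts, the lowest and highest ratio and ratios of other sign than the group, any other member, and up to 3 genes per further list by absolute ratio among those with at least 50 counts. Condensin, complex and promoter comparisons, and Kifap3, Epcam, Cdh1, Lgr5 and Cdc20's promoter, were chosen after values were seen.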

Additional observations from a re-analysis of the deposited data

How the results depend on the processing

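Scaling by total counts alone moved every gene by -0.26 on the log2 scale, the median of all genes was -0.31 in place of -0.06, and the share of genes past -2 or 2 that were higher in DSS was 41.7% (1087 of them higher, 1521 lower) in place of 54.6% (1356 and 1127). The medians were then -4.30 for mitotic kinesins, 0.28 for transport kinesins and -3.90 for members without a Kif symbol. Upper quartile factors put transport kinesins at 0.62. The mean in place of the median gave -3.77 for mitotic kinesins, -3.20 for members without a Kif symbol and -2.76 for the mitosis genes outside the rule. With all other kinesins counted as transport kinesins their median was 0.011 and the difference from mitotic kinesins -4.05, and with summed counts this difference was -3.98. The count of members at -2 or less ran from 52 to 54 over the scalings and filters, and it was 57 with a line of -1. DESeq2 size factors, thinning to equal total counts, a prior count of 2 and the count filters gave medians from -4.06 to -4.04 for mitotic kinesins and from 0.53 to 0.54 for transport kinesins. Of 410 values of single members under other scalings, thinning or a prior count, 343 lay within the main interval. Kif16b, Kif1c, Kif2a, Kif3a and Pttg1 changed sign, Bub3 crossed -2 with total counts (-2.02), and Cenpl did with upper quartile factors (-1.95). When genes were counted once, which was added after the data were seen, TTTGAA was found for 15.1% and CCAAT for 42.9% of all tested genes. No paired analysis was possible because each condition has 1 library, and for the same reason none could be left out. Depth limits Kif5a, Kif5c, Kif7, Kif26a and Kif26b most.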

Other observations

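Regulators known to act on mitotic promoters were measured too. Of 14 such genes, 4 were at a log2 ratio of -2 or less (28.6%, beside 6.54% of all tested genes). Their median was -0.89, beside -0.06 for all tested genes. Foxm1, an activator of mitotic genes, had 4037 control counts and 126 DSS counts, at -4.61 (interval -4.88 to -4.36). Mybl2, which joins the MuvB core in dividing cells, had 2247 and 163 counts, at -3.40, and Lin9, a subunit of that core, was at -2.16. The other core subunits were at -1.45 (Rbbp4), -0.44 (Lin54), -0.39 (Lin52) and 0.06 (Lin37). Of the repressor form, Tfdp1 was at -2.14, Rbl1 at -0.93, E2f4 at -0.91 and Rbl2 at 0.23, and the NF-Y subunits Nfya, Nfyb and Nfyc at -0.88, -0.64 and -0.21. The genes other than Foxm1, Mybl2 and Lin9 were named after their values were seen, and whether the regulators act on the mitotic genes in these cultures was not tested.

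Markers of cells outside the epithelium with counts in both libraries were scarce. Counts were given only for genes with at least 1 count in each library. A marker that was not listed may have counts in 1 library. Of 10 immune markers, 5 had counts in both libraries, and Ptprc and Cd3e were not listed. The sum was 14.9 scaled CPM (control) and 27.8 (DSS). Of 10 mesenchymal markers, 5 had counts in both, with a sum of 6.66 and 36.1, mostly from Vim. Col1a2, Col3a1, Dcn, Des and Lum were not listed. Of 5 endothelial markers, 3 had counts in both, with a sum of 1.03 and 3.16. The 8 epithelial markers summed to 6020 and 10354, with Krt8 taking the most reads in both libraries. Cdx2, an intestinal transcription factor of the same list, had 12798 and 3840 counts, at -1.35.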
